A study of Mus musculus with 36 samples.

Results

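The flavin-containing monooxygenases described here are Fmo1, Fmo2, Fmo4 and Fmo5, 4 of the 13042 named genes in the authors' table of liver expression. Each probe was taken whose gene name in the array files, or whose current name through its accession, is one of these 4 genes. The gene set was chosen by measured values of these data, namely the difference of Fmo1 between the quercetin-fed and the control mice. That difference is therefore given as a description without a test, and the comparisons of both groups with the baseline mice carry the tests. These comparisons reuse the quercetin-fed or the control mice, so for Fmo1 they are not independent of the choice.

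Liver RNA came from 36 adult male C57BL/6J mice, 12 in each of 3 groups. All mice ate a mild-high-fat diet with 30% of its energy as fat during 3 weeks of adaptation. The t=0 mice were killed when the adaptation ended, the HF mice ate the unchanged diet for 12 more weeks, and the HF-Q mice ate it for 12 weeks with 0.33% (w/w) of quercetin, a plant flavonoid. The labels give the strain as C57BL/6J, whereas the methods name the substrain C57BL/6JOlaHsd and a shorter adaptation than the labels do. No group on a low-fat diet was measured, and HF and t=0 differ in age and in the moment of sampling as well as in time on the diet, which cannot be told apart. On every array of the Agilent whole-mouse platform, cRNA of 1 liver labelled with Cy5 was hybridized against a pool of all samples labelled with Cy3, so each mouse is 1 array and 1 replicate.

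Flavin-containing monooxygenases are membrane enzymes of the endoplasmic reticulum that oxidize soft nucleophiles, mostly nitrogen and sulfur atoms, in drugs, dietary compounds and endogenous metabolites. They hold the cofactor FAD, draw electrons directly from NADPH and need no reductase partner, in contrast to the cytochromes P450, which receive electrons from P450 oxidoreductase (Por). Fmo1 oxidizes a wide range of drugs and also forms taurine from hypotaurine, Fmo2 is best known from lung, Fmo4 is little characterized, and Fmo5 is an abundant liver form that inserts oxygen next to carbonyl groups. Fmo1, Fmo2 and Fmo4 lie in a cluster on chromosome 1 together with Fmo6, Fmo9 lies farther along that chromosome, and Fmo5 lies alone on chromosome 3.

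The RefSeq promoter table (GRCm38.p6) was searched for every member, but it held no window for Fmo1. The 250 bases before a start are printed for Fmo2 and Fmo4, which were both called lower in HF than in t=0 mice. The first window, chr1:162898759-162899008 on the minus strand, precedes the upstream start of Fmo2, and the second, chr1:162812550-162812799 on the minus strand, precedes the start of Fmo4 in that table, which lies inside the span RefSeq gives the gene (162793188 to 162816072). Capitals mark matches to any of 5 motifs searched on both strands.
Fmo2: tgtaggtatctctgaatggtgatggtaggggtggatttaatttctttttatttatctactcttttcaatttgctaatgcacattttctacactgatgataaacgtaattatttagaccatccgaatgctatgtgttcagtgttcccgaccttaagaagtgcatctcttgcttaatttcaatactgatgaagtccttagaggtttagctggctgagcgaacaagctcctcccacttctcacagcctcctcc
Fmo4: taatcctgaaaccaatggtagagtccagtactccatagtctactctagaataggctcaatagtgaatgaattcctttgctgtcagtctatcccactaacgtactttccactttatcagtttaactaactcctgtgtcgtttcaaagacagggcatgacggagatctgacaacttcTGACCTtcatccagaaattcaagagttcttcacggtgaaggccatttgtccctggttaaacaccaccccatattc
The motifs were the E-box CACGTG, the D-box TTATGNAA, the antioxidant response element core TGACNNNGC, the nuclear receptor half-site AGGTCA and the HNF1 half-site GTTAAT. The Fmo4 window held 1 match, the reverse complement of AGGTCA, from 75 to 70 bases before the start, and the printed Fmo2 window held 0. A second start of Fmo2, inside the gene, had 1 match of AGGTCA from 9 to 4 bases before it, the Fmo5 window, also inside its gene, had 0, and no matches overlapped. Fmo1, without a window in that table, could not be searched. Of all 32851 promoter windows of this length, 14.0% held AGGTCA, 10.2% TGACNNNGC, 6.43% GTTAAT, 6.02% CACGTG and 3.07% TTATGNAA. These are matches of letters, not sites of binding.

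The 4 genes had 9 probes on the array, and 7 of them were in the authors' table, which holds spots whose mean signal exceeded 2 times the background. Fmo1 was measured by probe A_52_P508991 (mm8, chr1:164666581-164666640, minus strand), and its other probe, A_52_P408245, was near background at 1.54 times the local background in Cy5 and outside the table. Fmo2 had 2 probes in the table, A_51_P301998 (chr1:164713371-164713430) and A_52_P273891 (chr1:164712074-164712133), and A_52_P1138659, outside the table, which was well above background on 0 of 36 arrays. Fmo4 had the single probe A_52_P471282 (chr1:164630653-164630712), and Fmo5 had 3, A_52_P460767 (chr3:97737653-97737712), A_51_P468005 (chr3:97737582-97737641) and A_52_P1147453 (chr3:97738870-97738929). The mean Cy5 signal was 69.8 times the local background for Fmo1, 187 times for the brightest Fmo5 probe, 8.46 times for the brightest Fmo2 probe and 2.46 times for Fmo4. All 7 probes were well above background in Cy5 on 36 of 36 arrays. In Cy3, the reference, the Fmo4 probe was well above it on 30 arrays (1.73 times background) and A_52_P273891 of Fmo2 on 34 (1.85 times). Brightness depends on the probe as well as on the transcript, so the genes are not ranked against each other. Whether a probe lies in coding or untranslated sequence was not determined, because no annotation of mm8 was used.

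Values are the authors' log2 values, which amount to the log2 ratio of the mouse over the reference pool, centred on the array's median, plus a constant for each spot that returns it to a signal scale. No background was subtracted in them, which bears most on dim probes such as that of Fmo4. A gene is given by its brightest probe unless another is named.

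Fmo1 was lower in the livers of HF mice than in t=0 mice. Its log2 value had a lowest, median and highest of 11.59, 11.94 and 12.25 in the t=0 mice, of 11.13, 11.40 and 11.78 in the HF mice, and of 11.36, 11.89 and 12.28 in the HF-Q mice. All 12 HF mice lay below the t=0 median, and 10 of them below every t=0 mouse, although the ranges overlapped. Of the HF-Q mice, 4 of 12 lay above the t=0 median, 1 above every t=0 mouse and 1 below. Fmo1 fell by 31.3% in HF against t=0, a log2 difference of -0.54 (standard error 0.0911, 95% interval -0.73 to -0.35, adjusted p = 0.000164, limma). The log2 difference of HF-Q against t=0 was -0.07 (standard error 0.0951, 95% interval -0.26 to 0.13, adjusted p = 0.711, limma).

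**Figure D1:**
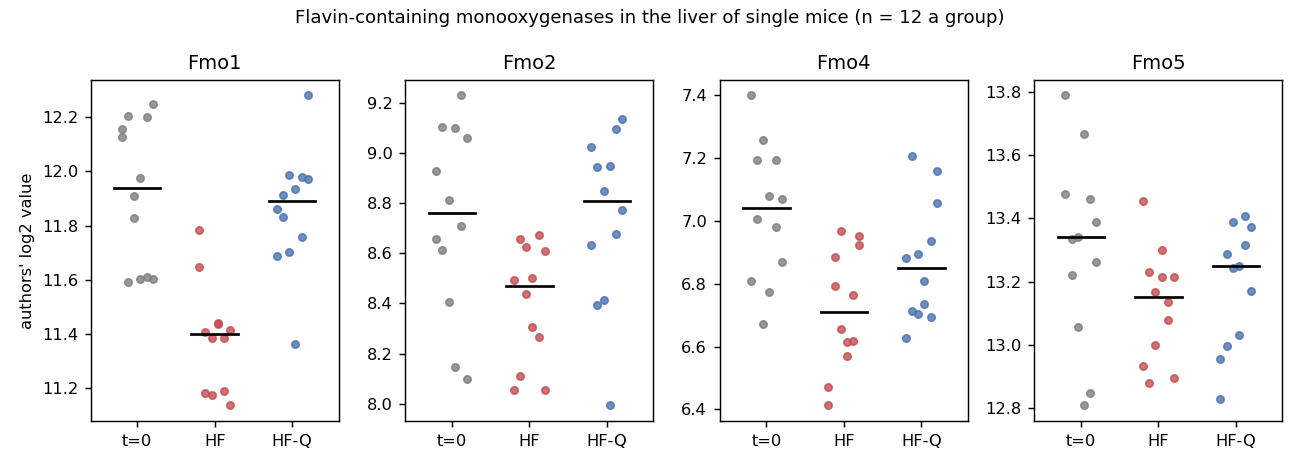
Authors' log2 value (vertical axes, each panel on its own scale) of the brightest probe of Fmo1, Fmo2, Fmo4 and Fmo5 in single mice of the t=0, HF and HF-Q groups. Each point is 1 of 12 mice and each line the group's median. The HF mice lie lowest for Fmo1, with a median of 11.40 against 11.94 and 11.89, while for Fmo5 the 3 groups overlap throughout.

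Fmo2 also fell in HF against t=0, but by less and less evenly. Its lowest, median and highest log2 values were 8.10, 8.76 and 9.23 in t=0, 8.05, 8.47 and 8.67 in HF, and 7.99, 8.81 and 9.14 in HF-Q mice. The HF mice were compressed to the lower part of the t=0 range, with 12 of 12 below its median and 2 below its minimum. The log2 difference of HF against t=0 was -0.34 (standard error 0.119, 95% interval -0.58 to -0.10, adjusted p = 0.0414, limma), a fold of 0.79. The second Fmo2 probe gave -0.11 (adjusted p = 0.262, limma), so its decrease did not pass the test, and 9 of 12 HF mice lay below the t=0 median there. The call was close to the threshold and was lost in 9 of 16 alternative analyses, among them slide as a block (adjusted p = 0.0826) and the methods' t-test (adjusted p = 0.062). Between HF-Q and t=0 the difference was 0.00 (95% interval -0.27 to 0.28, adjusted p = 0.995, limma).

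Fmo4, near background on these arrays, was lower in HF than in t=0 mice as well. Its log2 values ran from 6.67 over a median of 7.04 to 7.40 in t=0, from 6.41 over 6.71 to 6.97 in HF and from 6.63 over 6.85 to 7.21 in HF-Q mice. All 12 HF mice lay below the t=0 median and 6 below the t=0 minimum. The log2 difference was -0.31 (standard error 0.0805, 95% interval -0.47 to -0.14, adjusted p = 0.00811, limma). The size differed between value sets, from -0.16 in the normexp-corrected scanner ratios (adjusted p = 0.0492) to -0.50 in the processed signals of Feature Extraction, and the call was lost in 3 of 15 alternatives. In the authors' values the HF-Q mice lay between the other groups, at -0.16 from t=0 (95% interval -0.32 to 0.01, adjusted p = 0.215, limma). In the scanner ratios and in the processed signals they lay at the level of the HF mice instead, with HF-Q against t=0 at -0.15 (adjusted p = 0.04, limma) and -0.48 (adjusted p = 0.0106, limma).

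Fmo5, the form with the brightest probe, did not pass the test in either comparison with t=0. The lowest, median and highest log2 values were 12.81, 13.34 and 13.79 in t=0, 12.88, 13.15 and 13.46 in HF, and 12.83, 13.25 and 13.41 in HF-Q mice. The groups overlapped throughout, with 0 HF or HF-Q mice below the t=0 minimum, and the t=0 mice spread most. The log2 difference of HF against t=0 was -0.18 (95% interval -0.37 to 0.01, adjusted p = 0.169, limma), and the other probes gave -0.14 and -0.19. For HF-Q against t=0 the 3 probes gave -0.12, -0.07 and -0.07, with adjusted p of 0.468, 0.704 and 0.726 (limma).

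Thus 3 of 4 members were called lower in HF than in t=0 mice, where 10.4% of all 21781 probes were called lower and 21.3% called in either direction. In HF-Q against t=0, 0 of 4 members were called, where 11.9% of probes were called in either direction. For Fmo1, Fmo2 and Fmo5 the same was seen in all 19 alternative analyses, and for Fmo4 in 16 of 18. Each comparison shares a group with the contrast by which Fmo1 was chosen. HF was the lower group there, so that choice favours a lower Fmo1 in HF against t=0. The adjusted p of Fmo1 is not free of it. Both comparisons also use the same t=0 mice. That a member passed in one of them and not in the other does not by itself show a difference between HF and HF-Q.

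In HF-Q against HF, the contrast that chose Fmo1, the members stood as follows, given as a description. Fmo1 was higher in HF-Q by 0.48 (standard error 0.0829, 95% interval 0.31 to 0.65), a fold of 1.39, with 11 of 12 HF-Q mice above the HF median and 8 above every HF mouse. Fmo2 was higher by 0.34 (95% interval 0.11 to 0.57) at its brightest probe and by 0.29 (0.15 to 0.43) at the other, and the first of these was 0.17 with the Arntl level as a covariate and 0.18 with median centring. Fmo4 was higher by 0.15 (-0.01 to 0.31), which was 0.01 in the scanner ratios and in the processed signals, and Fmo5 by 0.06 (-0.09 to 0.21). In this contrast 2.36% of all probes were called in either direction.

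**Figure D2:**
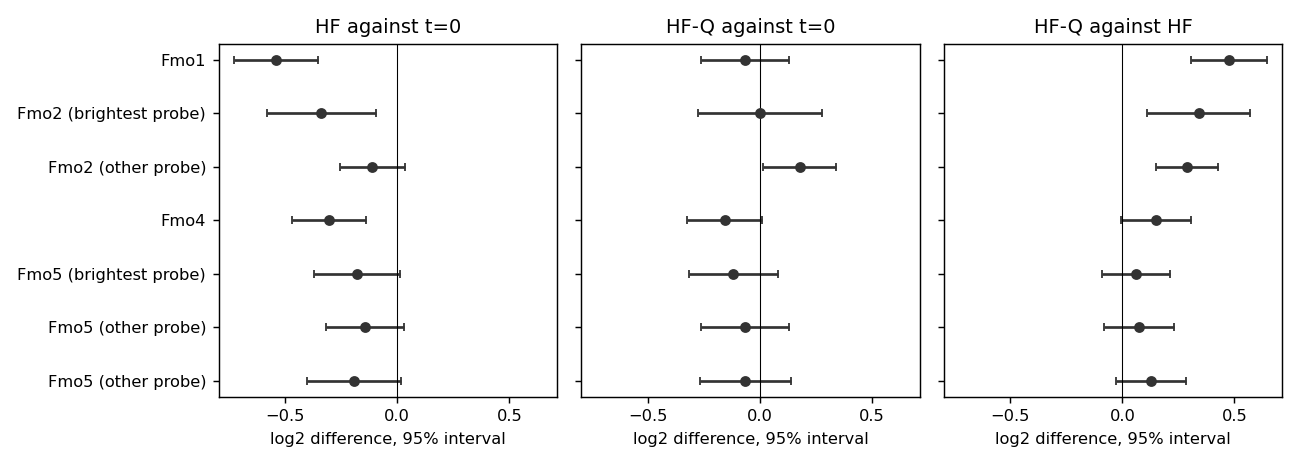
Log2 differences between groups of 12 mice (points) with 95% intervals (bars) for each probe of the members, in the authors' log2 values. In HF against t=0 the Fmo1, Fmo4 and brightest Fmo2 probes lie left of 0 with their intervals, in HF-Q against t=0 the members' intervals hold 0 except that of the second Fmo2 probe, and HF-Q against HF is shown as a description only.

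In the authors' values the order of the groups was the same at the brightest probes of Fmo1, Fmo4 and Fmo5, HF lowest, HF-Q next and t=0 highest by group mean. For Fmo2 HF was lowest, and HF-Q and t=0 had means of 8.74 each. The neighbours HF-Q and t=0 did not pass the test for any member. At the second Fmo2 probe HF-Q had the highest mean, 7.17 against 7.00 in t=0, and its difference of 0.18 did not pass after adjustment (adjusted p = 0.148, limma).

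Each of the 9 slides held arrays of all 3 groups, so the differences could be read within slides. Fmo1 was lower in HF than t=0 on 9 of 9 slides, with log2 differences from -0.80 to -0.32. Fmo2, Fmo4 and Fmo5 were each lower in HF than t=0 on 7 of 9 slides. In HF-Q against t=0, Fmo1 was higher on 3 slides and lower on 6, from -0.43 to 0.37. A slide held only 1 or 2 mice of a group, so each of these differences rests on few mice. The Fmo1 difference of HF against t=0 was below 0 on every slide, in HF mice that also took part in the choice of Fmo1. The smaller differences of the others changed sign between slides.

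**Figure D3:**
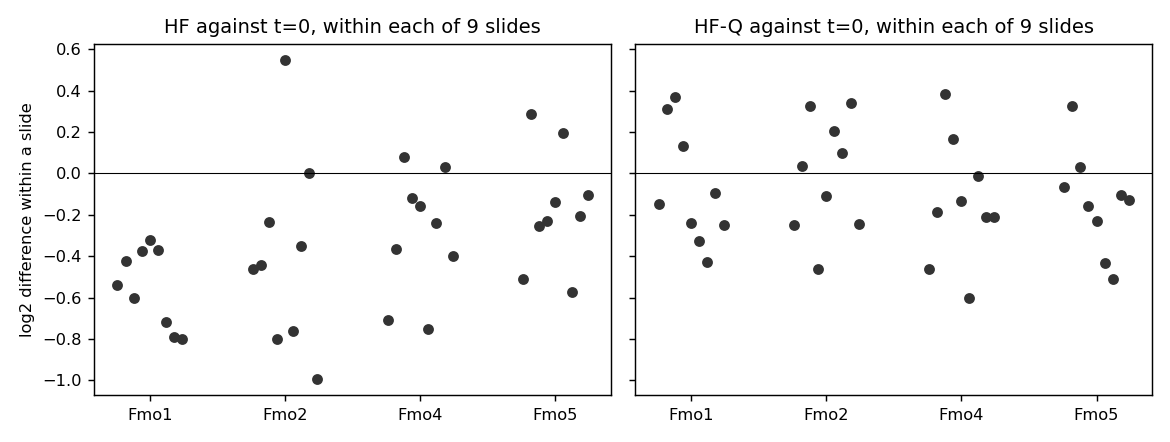
Log2 difference within each of 9 slides (points, 1 per slide) for the 4 members, with HF against t=0 on the left and HF-Q against t=0 on the right. Each point compares 1 or 2 mice of a group with 1 or 2 of the other. All 9 Fmo1 points lie below 0 on the left, and 6 of 9 do on the right.

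The choice of values and model did not move the Fmo1 result across the threshold. In 16 alternatives its HF against t=0 difference ran from -0.58 to -0.42, and the adjusted p reached at most 0.0419, with the scanner ratios centred on the array median. With the level of Arntl, a clock gene, as a covariate it was -0.43 (adjusted p = 0.00219). The same covariate changed Fmo2 to -0.20 (adjusted p = 0.253) and Fmo5 to -0.06, and left Fmo4 at -0.33 (adjusted p = 0.0157). Arntl itself lay 0.61 higher in HF than in t=0 mice (adjusted p = 0.0695, limma), so this covariate can also take up part of a group difference.

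**Figure D4:**
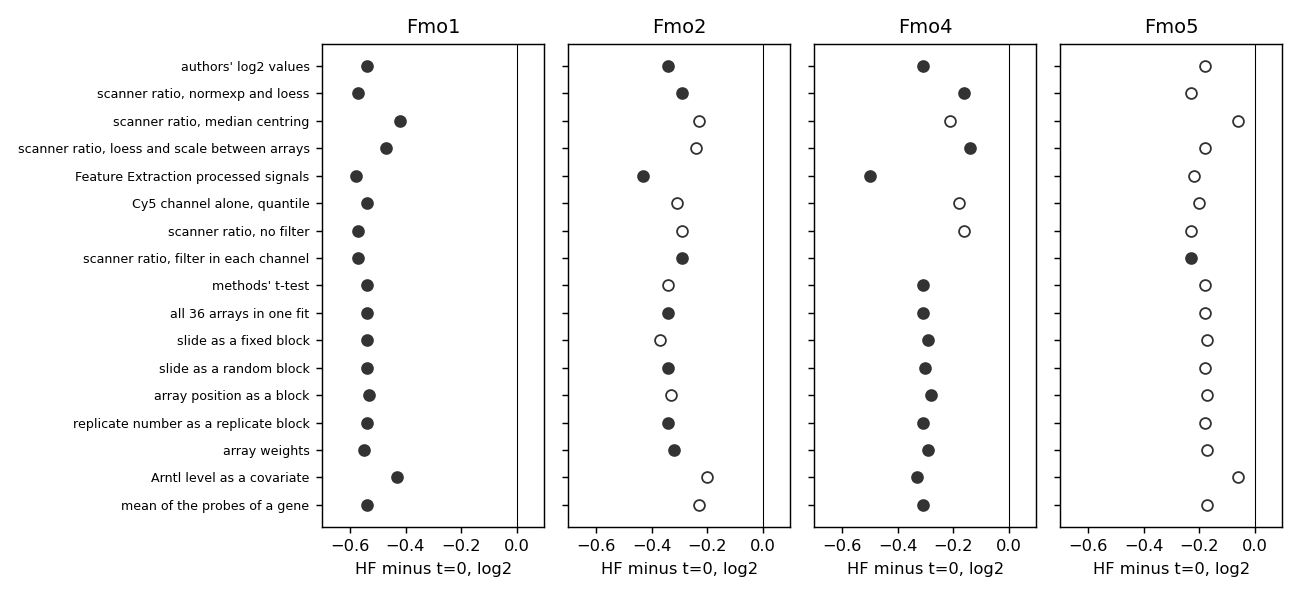
HF minus t=0 (log2, horizontal axes) for each member under the authors' values and 16 alternatives (rows). Filled points passed an adjusted p of 0.05 and open points did not, and Fmo4 has no point where its probe was left out by the filter. Fmo1 is filled in all rows, and Fmo5 in 1.

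Genes of the liver clock were read beside the members. Arntl (Bmal1), a transcription factor of the core clock whose mRNA peaks around dawn, had lowest, median and highest log2 values of 7.10, 8.11 and 9.45 in t=0, 7.80, 8.98 and 9.23 in HF, and 6.90, 7.81 and 8.61 in HF-Q mice. It was higher by 0.61 in HF than t=0 (adjusted p = 0.0695, limma) and fell by 1.00 in HF-Q against HF (adjusted p = 0.0034, limma). Among the clock genes high around dusk, 4 of 8 were called higher in HF-Q against HF, where 1.49% of all probes were. They included Dbp (0.92), Tef (0.63) and Per3 (0.42), the last at 2.28 times the local Cy5 background. The list ran from 0 to 0.92 with a median of 0.42, where the median of all probes was 0.01. Among those high around dawn 2 of 3 in the table fell, Arntl and Clock, the latter by 0.46. In HF against t=0, 1 of 3 dawn genes was called higher (Nfil3, by 0.53) and 1 of 8 dusk genes lower (Per3, by 0.28). Of all probes, 10.9% were called higher and 10.4% lower there. The dawn genes ran from 0.30 to 0.61 (median 0.53) and the dusk genes from -0.38 to -0.08 (median -0.28). In HF-Q against t=0, 0 of 3 and 0 of 8 were called. The hour of sampling of each mouse was not given in the sources used here, and its part in the differences of the members was not tested.

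Over all 36 mice, after the group means were removed, those with more Arntl had less Fmo1, Fmo2 and Fmo5, whereas r with Fmo4 did not pass the test. Over the residuals from the group means of 36 mice, Pearson's r with Arntl was -0.495 for Fmo1 (Spearman's rho -0.47, adjusted permutation p = 0.00843 and 0.013). It was -0.54 for Fmo2 (rho -0.506, adjusted permutation p = 0.00515 and 0.0073). For Fmo5 it was -0.51 (rho -0.514, adjusted permutation p = 0.00843 and 0.0073). For Fmo4 r was 0.157 (rho 0.115, adjusted permutation p = 0.388 and 0.519). Without the 2 mice farthest from the median of the member, r was -0.459, -0.459, -0.536 and 0.133. For comparison, 5% of all named genes had an r below -0.427 with Fmo1, below -0.362 with Fmo2 and below -0.367 with Fmo5. The lowest 1% lay below -0.545, -0.495 and -0.502. The p-values are two-sided, from 100000 permutations within groups, adjusted over the 8 pairs of a member with Arntl or Por. They treat the mice of a group as exchangeable. A split of the t=0 mice by sample number, given at the end of the Results, was not removed. In the single groups, r with Arntl was -0.727 in t=0, -0.0389 in HF and -0.436 in HF-Q mice for Fmo1. For Fmo2 it was -0.789, 0.371 and -0.687 in that order, for Fmo5 -0.567, -0.469 and -0.412, and for Fmo4 -0.00339, 0.312 and 0.305. In the HF mice r was thus near 0 for Fmo1 and positive for Fmo2, and the difference between groups was not tested.

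Por, the reductase of the cytochromes P450, which the flavin-containing monooxygenases do not use, varied with the same 3 members over the 36 mice. Its lowest, median and highest log2 values were 14.43, 15.15 and 16.11 in t=0, 14.17, 14.46 and 15.29 in HF, and 14.83, 15.58 and 16.65 in HF-Q mice. Por fell by 0.59 in HF against t=0 (adjusted p = 0.0187, limma) and rose by 0.98 in HF-Q against HF (adjusted p = 0.000785, limma). Within groups its r was 0.591 with Fmo1 (rho 0.509, adjusted permutation p = 0.00308 and 0.0073) and 0.583 with Fmo2 (rho 0.56, adjusted permutation p = 0.00308 and 0.0073). With Fmo5 it was 0.452 (rho 0.408, adjusted permutation p = 0.0162 and 0.0264) and with Fmo4 -0.195 (rho -0.221, adjusted permutation p = 0.32 and 0.244). Without the 2 farthest mice these were 0.547, 0.516, 0.377 and -0.146. Of all named genes, 5% had an r above 0.547 with Fmo1, above 0.409 with Fmo2 and above 0.45 with Fmo5. In t=0, HF and HF-Q mice r with Por was 0.716, 0.423 and 0.524 for Fmo1, 0.697, 0.041 and 0.728 for Fmo2, 0.653, 0.192 and 0.258 for Fmo5, and 0.00332, -0.597 and -0.163 for Fmo4.

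**Figure D5:**
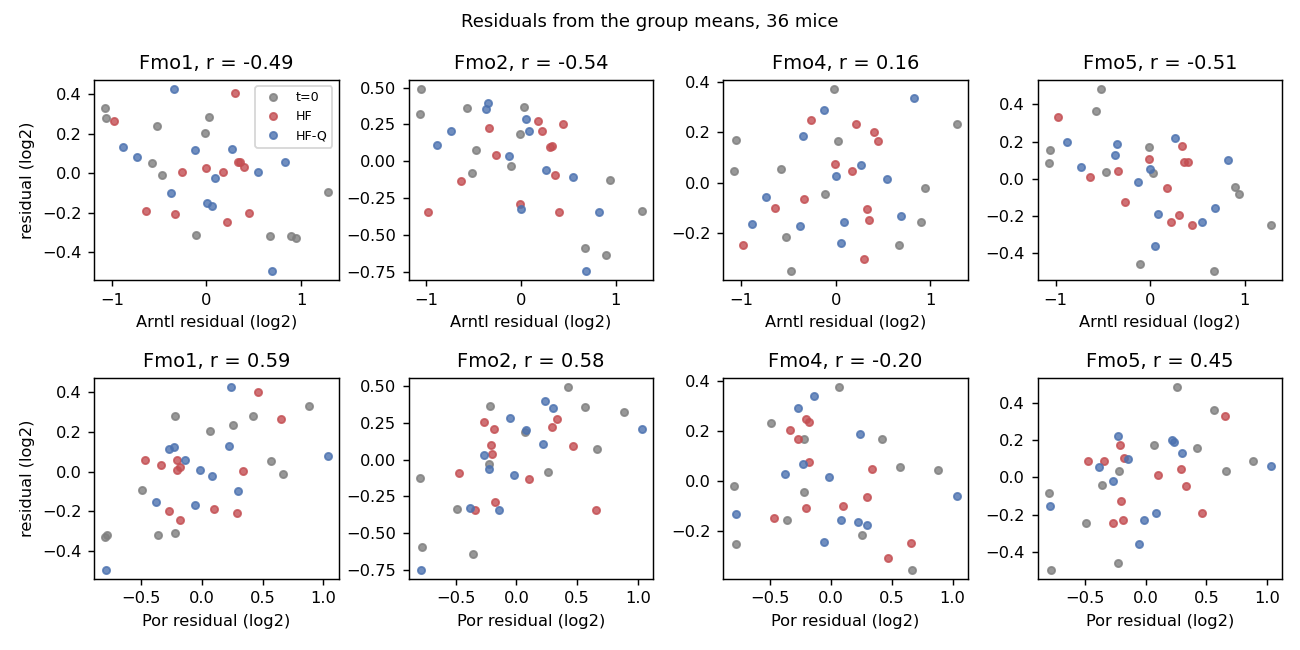
Residuals from the group means (log2) of each member (vertical axes) against those of Arntl (upper row) and Por (lower row) in 36 mice, coloured by group. Over all mice Fmo1, Fmo2 and Fmo5 run down with Arntl and up with Por, while in the HF mice Fmo2 has r of 0.371 and 0.041, and over all mice Fmo4 has r of 0.157 and -0.195.

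The members themselves varied together only in part. Of 6 pairs, Fmo1 and Fmo5 were the closest, with r = 0.582 within groups over 36 mice (rho 0.628, adjusted permutation p = 0.00282 and 0.00072), and r was 0.574 without the 2 mice farthest from the median of Fmo1. These 2 genes lie on different chromosomes, and 5% of all named genes had an r with Fmo1 above 0.547. Fmo1 and its neighbour Fmo2 gave r = 0.481 (rho 0.357, adjusted permutation p = 0.018 and 0.138). That pair differed between groups, with r of 0.782 in t=0, 0.614 in HF-Q and -0.384 in HF mice, a difference that was not tested. It passed for r but not for rho, and r was 0.337 without the 2 farthest mice. The other 4 pairs had r from 0.0611 to 0.189 and did not pass (adjusted permutation p from 0.421 to 0.743). Within single groups these ranged widely, for Fmo2 and Fmo5 from 0.551 in t=0 to -0.676 in HF and 0.124 in HF-Q mice, and for Fmo1 and Fmo4 from 0.423 to -0.618 and 0.511. Fmo1 and Fmo5 gave 0.71, 0.332 and 0.56 in that order, and none of these differences between groups was tested. Fmo4, whose probe lies nearest to background, is part of 3 of these 4 pairs. In the scanner ratios Fmo1 and Fmo4 did pass, with r = 0.42 (adjusted permutation p = 0.0295).

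Probes of a gene agreed well for Fmo5 and moderately for Fmo2. Within-group residuals of the 3 Fmo5 probes correlated at r of 0.833, 0.867 and 0.683 over 36 mice. The 2 Fmo2 probes correlated at 0.511, or 0.645 without HF-Q replicate 2, the array on which 96.7% of Cy5 spots were well above background against 56.4% to 67.3% on the other 35. The second Fmo2 probe is the dimmer, at 2.62 times background. For Fmo1 and Fmo4 a single probe was measurable, so agreement could not be checked.

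The genes whose within-group residuals ran closest to those of Fmo1, out of 13041, were Atg3, an autophagy enzyme (r = 0.879), F9, the hepatocyte-made coagulation factor IX (0.862), Bnip3, a receptor for mitophagy (0.843), Syap1 (0.842) and Atl2, a GTPase that shapes the endoplasmic reticulum (0.827). Of these, F9 and Bnip3 also fell in HF against t=0, by 0.39 and 0.44 (adjusted p = 0.000351 and 0.0126, limma). The most opposed were Cc2d1a (-0.74), Foxs1 (-0.719), Igsf3 (-0.715), Ifnz (-0.706) and the endocytic scaffold gene Itsn1 (-0.706). For comparison, 1% of genes had an r with Fmo1 above 0.673 and 1% below -0.545. These lists were picked for their likeness over 36 mice whose arrays share slides, and are given without a test.

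Fmo2 ran closest to Rhebl1, a small GTPase (0.761), Gm5165 (0.716) and Bach1, a haem-responsive repressor (0.68), and most opposed to Ets2 (-0.747), Unkl (-0.689) and Itga5, a subunit of the fibronectin receptor (-0.683). Fmo4 ran closest to Lancl1 (0.734), Brd9, a chromatin remodeller subunit (0.716), and Btrc, a ubiquitin ligase subunit (0.704), and opposed to the histone methyltransferase gene Setd1b (-0.739), Bend3 (-0.726) and Sart3 (-0.671). In the scanner ratios the r of these 6 genes with Fmo4 was smaller, between -0.55 and 0.464. Fmo5 ran closest to Arpc1a, a subunit of the actin-nucleating Arp2/3 complex (0.776), Slc9a3r1 (0.768) and Asl, the argininosuccinate lyase of the urea cycle (0.748), and opposed to Slc25a24, a mitochondrial carrier (-0.773), Spon2 (-0.753) and Leprotl1 (-0.684).

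Of the family genes outside the set, Fmo6 and Fmo9 had 1 probe each, at 1.58 and 1.59 times the local Cy5 background, and both lay outside the table.

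Of the genes next to the family on the chromosomes, 2 of 8 were called in HF against t=0, where 21.3% of all probes were called. Beside the chromosome 1 cluster, Gorab rose by 0.23 in HF against t=0 (adjusted p = 0.00548, limma), while Vamp4 (0.14), Prrc2c (0.29) and Prrx1 (-0.01) did not pass. Beside Fmo5, Prkab2, a subunit of the energy sensor AMPK, rose by 0.21 (adjusted p = 0.0128, limma), and Chd1l (-0.04), Olfr1402 (-0.08) and Pde4dip (0.01) did not pass. In HF-Q against t=0 and in HF-Q against HF, 0 of these 8 genes were called.

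Cofactor and substrate genes were read from lists. In HF against t=0, 10.9% of all probes were called higher and 10.4% lower, and the shares called in either direction were 11.9% in HF-Q against t=0 and 2.36% in HF-Q against HF. A count of 1 gene in lists this short is given as a value alone. Of 9 genes listed for NADPH supply and the pentose phosphate pathway, 3 were called higher in HF against t=0 and 0 lower. They were G6pdx by 0.33, Pgd by 0.27 and Tkt by 0.25 (adjusted p = 0.0318, 0.0405 and 0.000785, limma). Me1 had the largest difference, 0.36, and did not pass (adjusted p = 0.0722, limma). The list ran from -0.20 to 0.36, with a median of 0.15 against -0.00473 for all probes. Against t=0, 1 of the 9 was called in HF-Q, Idh2, which rose by 0.29, and in HF-Q against HF 1 was called, G6pdx, which fell by 0.33 (adjusted p = 0.0344, limma). Of 6 genes for riboflavin uptake and FAD, Enpp1, which hydrolyses nucleotides, was the 1 called, up by 0.40 in HF and 0.46 in HF-Q against t=0, with list medians of 0.07 and 0.09. In the list of 7 genes for microsomal electron transfer, Cyb5b and Pgrmc2 rose in HF against t=0, by 0.32 and 0.28, and Por fell, with a list median of 0.06. Por was the 1 gene of that list called in HF-Q against HF, and 0 of 7 were called in HF-Q against t=0.

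Against t=0, 10.9% of all probes were called higher in HF and 6.62% in HF-Q. Of 5 genes of hypotaurine and taurine handling, the pathway of an Fmo1 substrate, 3 were called higher than at t=0 in both diet groups. Those in HF were Csad, which makes hypotaurine, by 0.79 (adjusted p = 0.000997, limma), Baat, which conjugates bile acids with taurine, by 0.19 and the taurine transporter gene Slc6a6 by 0.18. The same 3 were higher in HF-Q than t=0, Csad by 0.82, Slc6a6 by 0.40 and Baat by 0.19 (adjusted p = 0.00215, 0.00237 and 0.0236, limma), and in HF-Q against HF 0 of 5 were called. Cdo1 and Ado, enzymes of thiol oxidation, differed by 0.01 and 0.00 in HF and by -0.10 and -0.01 in HF-Q from t=0. The list's median was 0.18 in HF and 0.19 in HF-Q against t=0. Both comparisons share the t=0 mice.

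The tissue was liver by its markers. All 7 hepatocyte markers found on the array were in the table, and their summed signal ranged from 836300 to 1426000 in t=0, 975400 to 1378000 in HF and 923600 to 1607000 in HF-Q mice on the scale of the authors' values. Of the 7, Cps1 and Cyp2e1 fell in HF against t=0, by 0.32 and 0.36 (adjusted p = 0.0184 and 0.0156, limma), Cps1 and Ttr fell in HF-Q against t=0, by 0.45 and 0.33, and 0 were called in HF-Q against HF. Against t=0, 10.4% of all probes were called lower in HF and 5.3% in HF-Q. In bulk liver, fewer cells of a type and less RNA per cell cannot be told apart. Of the bile duct markers, 3 of 5 were called higher in HF than t=0 (Sox9 by 0.64, Krt19 by 0.42 and Krt7 by 0.29), where 10.9% of all probes were. Sox9 was lower by 0.60 in HF-Q than HF. The summed signal of the 5 markers ranged from 10580 to 25510, 12290 to 26790 and 10760 to 17650 in t=0, HF and HF-Q. Of the red blood cell genes, Hba-a1 rose by 0.93 in HF and 1.21 in HF-Q against t=0. Alas2 fell by 0.26 in HF-Q against t=0, and their summed signal ranged from 22190 to 37250, 34590 to 110600 and 39090 to 78730. Endothelial Pecam1 fell by 0.34 and Cdh5 rose by 0.20 in HF against t=0, and Pecam1 rose by 0.38 in HF-Q against HF. The other 5 endothelial markers were not called, and the list's summed signal ranged from 21390 to 27860, 21860 to 29300 and 22210 to 27580. For markers of Kupffer cells (7 in the table), stellate cells (7), lymphocytes (4), adipocytes (1), lung (2) and pancreas (4), 0 were called in any comparison. The Kupffer markers still ran from 0.11 to 0.82 in HF and from 0.11 to 0.92 in HF-Q against t=0. Their median summed signal was 28960 in t=0, 39710 in HF and 39000 in HF-Q mice. The adipocyte-defining Adipoq, Plin1 and Lep were outside the table. The summed pancreas signal reached 2046000 in 1 HF mouse, against a median of 2988 in that group. The part of these markers in the differences of the members was not tested.

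Within the t=0 group, mice numbered 7 to 12 had higher Fmo1, with a median of 12.18 and a range of 11.91 to 12.25, than those numbered 1 to 6, with a median of 11.61 and a range of 11.59 to 12.13. Fmo2 and Fmo5 showed the same order, with medians of 9.08 against 8.51 and 13.43 against 13.14, and Fmo4 had medians of 7.08 and 6.99. The same split separated Arntl, with medians of 7.62 against 8.96, and Por, with 15.72 against 14.80. The correlations of the t=0 mice, and those over all 36 mice, therefore run across it. So do the differences from t=0. The HF medians of 8.47 for Fmo2 and 13.15 for Fmo5 lay close to those of t=0 numbers 1 to 6. For Fmo1 and Fmo4 the HF medians, 11.40 and 6.71, lay below those of both sets of t=0 numbers. This split by sample number was chosen after the values were seen and was not tested.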

How the data were processed

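Liver RNA of 36 mice was measured on 36 arrays of 9 slides, and groups came from the sample titles. The authors quantified the scanned arrays with Agilent Feature Extraction (10.5.1.1 per the labels, whereas the methods name an earlier version). The deposited scanner files hold median spot and background intensity for Cy5 and Cy3, not normalized. The authors' table holds log2 values of 23256 spots, 21781 probes. Compared with the scanner files, these equal the log2 ratio of Cy5 over Cy3 plus an array and a spot constant (largest residual 4.48e-06), without background subtraction, with every array median at 8.961, and the table holds all spots with mean signal above 2 times background. They are the main values because the members were defined on them.

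Spots of a probe were averaged. Groups of 12 were compared 2 at a time with limma (lmFit, eBayes, two-sided, Benjamini-Hochberg over all probes, adjusted p under 0.05). Scanner ratios used normexp (offset 50) and loess. Of the probes, 16104 were named through accessions in RefSeq and 3472 through symbols alone, and 2205 were unnamed. Residuals were correlated over 36 mice with 100000 permutations within groups. The alternatives changed the values, normalization, filter, test, slide, array position, replicate block, array weights, Arntl level, probe choice and samples, and the fit was tested on simulated data. Added after seeing the data were normalizations without HF-Q replicate 2 and the correlations with Arntl and Por. Some results are not reported here.

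The members, gene lists and motifs were chosen with earlier results of these data known. Named were all member probes, the genes most and least alike (5 each for Fmo1, 3 for the others), the nearest 2 genes on each side with a probe in the table, and, per list and comparison, up to 3 called genes, with Arntl and Por throughout. The number of arrays limits the precision. R 4.3.3, limma 3.58.1, statmod 1.5.0, the package data.table (1.17.8), Python 3.11.15 and matplotlib 3.10.9 were used.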

Additional observations from a re-analysis of the deposited data

How the results depend on the processing

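Fmo1 in HF against t=0 kept its call in 16 of 16 alternatives. The Fmo2 call there was lost with median centring (-0.23), scale between arrays (-0.24), the Cy5 channel alone (-0.31), no filter (-0.29), the methods' t-test (-0.34), slide as a fixed block (-0.37), array position (-0.33), the Arntl covariate (-0.20) and the mean of its probes (-0.23). The Fmo4 call was lost with median centring (-0.21), Cy5 alone (-0.18) and no filter (-0.16), each leaving 1 member called, and Fmo5 was called with the filter in each channel (-0.23), which left Fmo4 out. All 3 stayed called in 6 alternatives. The causes were not tested.

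In HF-Q against t=0, Fmo4 was called in the scanner loess ratios (-0.15) and the processed signals (-0.48), 1 member each. Values that were not called changed sign: Fmo1 to 0.02 with median centring, 0.30 with scale, and 0.06 and 0.32 with these and without HF-Q replicate 2, where Fmo5 became 0.03 with median centring. Scale gave Fmo5 -0.33, or -0.37 without HF-Q replicate 2, against -0.12. Fmo2, at 0.00, became -0.04 (loess, also unfiltered or filtered by channel), -0.05 (median centring, processed signals), -0.09 (Cy5), -0.01 (slide, array weights) and -0.15 (Arntl). In HF-Q against HF, scale moved Fmo1 to 0.77 and Fmo5 to -0.15, or 0.79 and -0.19 without HF-Q replicate 2.

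Probes called in HF against t=0 were 3063 with Cy5 alone, against 4645 in the authors' values. In HF-Q against t=0 they were, against 2596 in the authors' values, 396 with median centring, 648 with scale, 1166 with Cy5 and 4220 with array weights, and 709 and 642 with median centring and scale without HF-Q replicate 2. In HF-Q against HF they were, against 513, 77, 90, 180 and 804 in that order, 65 and 75 without HF-Q replicate 2, 210 with slide and 1 with the Arntl level.

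The correlation of Fmo1 and Fmo4 passed in the scanner ratios (0.42), that of Fmo1 and Fmo2 was lost with slide effects removed (0.41), and that of Fmo4 and Arntl turned to -0.01 in the scanner ratios. Replicate numbers were not treated as pairs. In each comparison 3 or 4 of 12 same-numbered pairs correlated above 0.1, and 1 to 3 mice correlated best with their own number. These counts cannot exclude a pairing. With the replicate number as a block, Fmo1, Fmo2 and Fmo4 stayed at -0.54, -0.34 and -0.31 in HF against t=0 with 4636 probes called, and 2372 and 360 were called in the other comparisons. The standard errors of Fmo1, Fmo2 and Fmo4 in HF against t=0 were 0.075, 0.094 and 0.087 with that block. Without it they were 0.091, 0.119 and 0.081. Signal over background limits Fmo4 and the second Fmo2 probe.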
